A study of Mus musculus with 6 samples.

Results

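Collagen VI is built from chains encoded by 6 mouse genes, Col6a1 to Col6a6, and all 6 were found by symbol among the 26231 genes of the RNA sequencing table. The chains were chosen by their measured difference between the lines, so that difference and every ratio between chains is given below as a description, with no test. Only 3 of the 6, Col6a1, Col6a2 and Col6a3, reached 1 RPKM (the reads of a gene divided by its exon length and by the depth of the library) in at least 3 libraries, the filter that left 11067 genes for testing.

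The cells were fibroblasts of FVB embryos of about 14 days by the labels, or a day younger by the methods, that carry loxP-flanked Nf2 alleles (Nf2fl/fl) and were immortalized with SV40 large T antigen delivered by lentivirus. A CMV-GFP control vector gave MEF Nf2fl/fl, with the genotype label WT (control). A CMV-Cre GFP lentivirus, meant to remove the flanked part of Nf2, gave MEF Nf2-/-, with the genotype label Nf2 KO. Both lines therefore carry SV40 large T antigen and GFP vectors, and Cre was given to MEF Nf2-/- alone, so the effects of Nf2 loss, of Cre and of the separate passage of each line cannot be told apart. Each line gave 3 libraries from cells kept for 24 h without serum, and since no source says that these came from separate cultures, p-values measure only the spread between these libraries.

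The depth inferred from the values ran from 13462426 to 73093127 reads, with replicate 3 deepest in both lines. Fibroblast markers were at 1989 to 2782 RPKM in sum in MEF Nf2fl/fl and at 1386 to 1946 RPKM under the MEF Nf2-/- label, although Lum and Fap were near 0 in both lines. Nf2, the gene for the tumor suppressor Merlin, was at 14.3, 13.7 and 13.1 RPKM across replicates 1, 2 and 3 of MEF Nf2fl/fl and at 15.4, 12.9 and 13.9 RPKM under the MEF Nf2-/- label. The difference of log2(RPKM + 1) was 0.033 (standard error 0.096, adjusted p = 0.987 from limma), so Nf2 RNA did not separate the labels, and every direction below follows the labels alone. The table holds 1 value for the whole gene, which does not report on the flanked part.

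Collagen VI forms a beaded microfilament network around fibroblasts, muscle fibres, fat cells and chondrocytes. An α1, an α2 and an α3 chain, the products of Col6a1, Col6a2 and Col6a3, join into a triple helical monomer, monomers pair and stack into tetramers inside the cell, and the tetramers are secreted and joined end to end. In this scheme the α3 chain, the longest of these, is needed for the common monomer, and α4, α5 or α6 can take its place in some tissues. Mutations in the genes for α1, α2 and α3 cause Ullrich and Bethlem muscle disorders in people.

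In GENCODE vM21 on GRCm38 (mm10) all 6 genes lie on the minus strand. Col6a2 (chr10:76595762-76623630) and Col6a1 (chr10:76708792-76726168) are neighbours on chromosome 10. Col6a3 lies alone on chromosome 1 (chr1:90765923-90843971). Col6a6 (chr9:105687809-105828160), Col6a5 (chr9:105856078-105960643) and Col6a4 (chr9:105989454-106096783) follow each other on chromosome 9.

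The sequences before the starts of the 3 expressed chains are shown because Col6a1 and Col6a2, next to each other, differed alike between the lines, and Col6a3, on another chromosome, differed in the same direction by more. They come from RefSeq on GRCm38.p6 and are written 5′ to 3′ along the gene, and each is the stretch that lies before the first base of the GENCODE gene. It is 126 bases at chr10:76726169-76726294 for Col6a1, 250 bases at chr10:76623631-76623880 for Col6a2 and 250 bases at chr1:90843972-90844221 for Col6a3. Capitals mark a GC box.
Col6a1: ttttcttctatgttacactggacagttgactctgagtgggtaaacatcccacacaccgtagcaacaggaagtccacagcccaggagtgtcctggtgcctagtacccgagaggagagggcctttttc
Col6a2: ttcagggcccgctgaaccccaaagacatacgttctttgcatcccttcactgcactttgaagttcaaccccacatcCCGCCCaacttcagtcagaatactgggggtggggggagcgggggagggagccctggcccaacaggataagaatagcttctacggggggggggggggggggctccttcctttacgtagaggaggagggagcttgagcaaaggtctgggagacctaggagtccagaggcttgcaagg
Col6a3: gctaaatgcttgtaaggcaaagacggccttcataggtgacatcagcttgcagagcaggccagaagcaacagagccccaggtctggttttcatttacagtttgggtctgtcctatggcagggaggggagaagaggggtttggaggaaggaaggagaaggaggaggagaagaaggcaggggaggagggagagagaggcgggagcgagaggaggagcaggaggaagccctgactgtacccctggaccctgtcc

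Motifs were searched on both strands in the 250 bases before each RefSeq start. They were CATTCC (the core bound by TEAD, the partner of YAP in the Hippo pathway, upstream of which Merlin acts), TGACTCA (AP-1), GGGCGG (GC box) and the CCAAT box, spelled CCAAT. In the windows of the chains the only matches that overlap are the GC boxes 15 and 11 bases before the downstream start of Col6a2. Among all 32851 such windows, 12.6% hold the TEAD core, 4.46% the AP-1 motif, 32.7% a GC box and 33.9% a CCAAT box. The Col6a3 window held none of these motifs. RefSeq gives Col6a2 a pair of starts, and the window of the downstream start held CATTCC 115 bases before it as well as GC boxes, while the Col6a1 window held TGACTCA 90 bases before its RefSeq start. Both matches lie downstream of the GENCODE start of their gene, and they are shown with 10 bases on either side and the motif in capitals.
Col6a1, chr10:76726118-76726144: gctgatgctgTGACTCActcagctttg
Col6a2, chr10:76623504-76623529: tcccccagctCATTCCccagcttcat
A match is a string of letters in a window, and binding was not measured here.

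Col6a1 was the most abundant chain in every library. It was at 130.3, 87.4 and 169.8 RPKM across replicates 1, 2 and 3 of MEF Nf2fl/fl and at 88.8, 47.7 and 68.0 RPKM under the MEF Nf2-/- label. The lines overlapped, since replicate 1 labelled MEF Nf2-/- lay just above replicate 2 of MEF Nf2fl/fl. The means were 129 ± 41.2 and 68.2 ± 20.5 RPKM (SD, n = 3 each), a ratio of 1.90, and the difference of log2(RPKM + 1) was -0.91.

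Col6a2, which encodes the chain that pairs with α1 at a 1 to 1 ratio in the monomer, was at 35.4, 25.5 and 44.1 RPKM in MEF Nf2fl/fl and at 21.7, 14.2 and 18.5 RPKM under the MEF Nf2-/- label. Here the lines did not overlap. The means were 35.0 ± 9.33 and 18.1 ± 3.72 RPKM (SD, n = 3 each), a ratio of 1.93, and the difference of log2(RPKM + 1) was -0.90.

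Col6a3, which encodes the long α3 chain whose C-terminal end is cleaved off as endotrophin, was at 19.0, 13.1 and 21.5 RPKM in MEF Nf2fl/fl. Under the MEF Nf2-/- label it was at 1.08, 0.529 and 1.23 RPKM, which correspond to 234, 122 and 1075 reads. Each of these lay far below the lowest MEF Nf2fl/fl library. The means were 17.9 ± 4.32 and 0.946 ± 0.369 RPKM (SD, n = 3 each), so the mean was 18.9-fold lower under the MEF Nf2-/- label, and by replicate number the values were 17.6-fold, 24.8-fold and 17.5-fold lower. The difference of log2(RPKM + 1) was -3.27, which the added 1 understates (-4.14 with 0.1 added), and it was 3 in the order of the 11067 genes from the lowest difference up. In bulk RNA, fewer cells that make Col6a3 and less Col6a3 RNA per cell cannot be told apart.

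**Figure D1:**
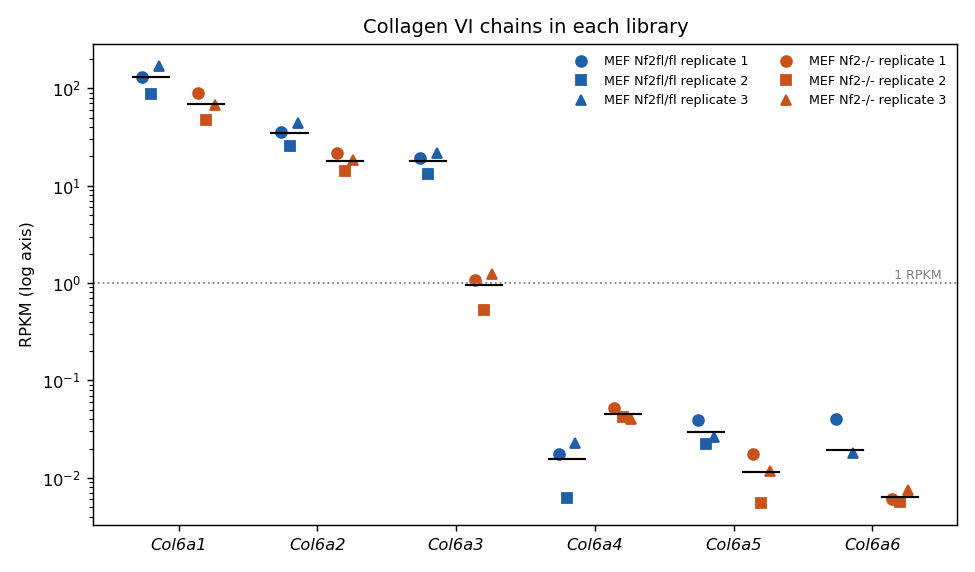
RPKM (log axis) of the 6 collagen VI genes in each of the 6 libraries, with MEF Nf2fl/fl in blue and MEF Nf2-/- in orange, the replicate number given by the marker and a line at the mean of 3. Col6a3 sits between 13.1 and 21.5 RPKM in MEF Nf2fl/fl and between 0.529 and 1.23 RPKM under the MEF Nf2-/- label, while Col6a6 in MEF Nf2fl/fl replicate 2 is at 0 and cannot be drawn on this axis.

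Of the 3 chains tested, 1 (Col6a3) was among the genes called lower in the libraries labelled MEF Nf2-/-, a call made for 0.578% of all genes tested (0.479% were called higher). Once the replicate number was a block, all 3 chains were among the genes called lower, a call then made for 4.54% of genes (2.99% higher). In 2 of the 3, Col6a2 and Col6a3, every library labelled MEF Nf2-/- lay below every MEF Nf2fl/fl library, as in 7.52% of genes. These counts rest on the difference by which the chains were selected, and nothing is read from them. The difference for Col6a3 was -3.27 without replicate 1 of both lines and -3.23 without replicate 3.

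The chains that can replace α3 were near 0 in both lines. Col6a4, which encodes a full chain in mice while its human counterpart is broken into pseudogenes, was at 0.0174, 0.00618 and 0.0230 RPKM in MEF Nf2fl/fl, or 2, 1 and 12 reads. It was at 0.0519, 0.0426 and 0.0401 RPKM under the MEF Nf2-/- label, or 8, 7 and 25 reads. All 3 of these lay above the MEF Nf2fl/fl libraries, and the reads summed to 15 in MEF Nf2fl/fl and to 40 under the MEF Nf2-/- label. In the deepest libraries, the replicates 3, the exact Poisson 95% intervals were 0.0119 to 0.0401 and 0.0260 to 0.0592 RPKM. They overlapped, which is no test and does not show that the lines were alike. Such intervals cover counting error only.

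Col6a5, which encodes the α5 chain, known from skin, had 5, 4 and 15 reads in MEF Nf2fl/fl and 3, 1 and 8 reads in the libraries labelled MEF Nf2-/-. Its level was 0.0224 to 0.0395 RPKM in the former and 0.00551 to 0.0176 RPKM in the latter, which did not overlap, although a few reads decide each value. Col6a6, which encodes the α6 chain, had 5, 0 and 10 reads and 1, 1 and 5 reads, and the count of 0 allows up to 0.0173 RPKM (3 reads, a one-sided limit, while the exact two-sided Poisson interval reaches 0.0212 RPKM). At these read numbers a difference was not detectable for Col6a6. Reads of Col6a5 and Col6a6 may also be split between genes, since 3.98% and 4.31% of their 31-base stretches occur in another gene, against 0% for Col6a1 and Col6a3, 0.157% for Col6a2 and 0.0117% for Col6a4.

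The sum of Col6a4, Col6a5 and Col6a6 was 0.0643 ± 0.0345 RPKM in MEF Nf2fl/fl and 0.0628 ± 0.0113 RPKM under the MEF Nf2-/- label (SD, n = 3 each), a difference smaller than the spread. Even at its low level under the MEF Nf2-/- label, Col6a3 was 15.0 ± 5.49 times that sum, against 325 ± 131 times in MEF Nf2fl/fl.

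Because an α1, an α2 and an α3 chain enter each monomer, the ratios between their RNAs were taken within each library, where depth cancels. Col6a1 over Col6a2 was 3.68, 3.43 and 3.85 in MEF Nf2fl/fl and 4.101, 3.35 and 3.68 in the libraries labelled MEF Nf2-/-. The lines overlapped fully, with means of 3.66 ± 0.210 and 3.71 ± 0.375 (SD, n = 3 each), and the shift of the log2 ratio was 0.019.

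Col6a1 over Col6a3 was 6.86, 6.67 and 7.90 in MEF Nf2fl/fl and 82.1, 90.3 and 55.3 in the libraries labelled MEF Nf2-/-. The means were 7.14 ± 0.660 and 75.9 ± 18.3, and the log2 ratio was 3.38 higher under the MEF Nf2-/- label. Col6a2 over Col6a3 was 1.86, 1.94 and 2.05 in MEF Nf2fl/fl and 20.02, 26.9 and 15.0 in the other line, and its log2 ratio was 3.36 higher. Neither ratio overlapped between the lines. Both varied more among the libraries labelled MEF Nf2-/- (SD of the log2 ratio 0.38 and 0.42) than among those of MEF Nf2fl/fl (0.13 and 0.069).

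**Figure D2:**
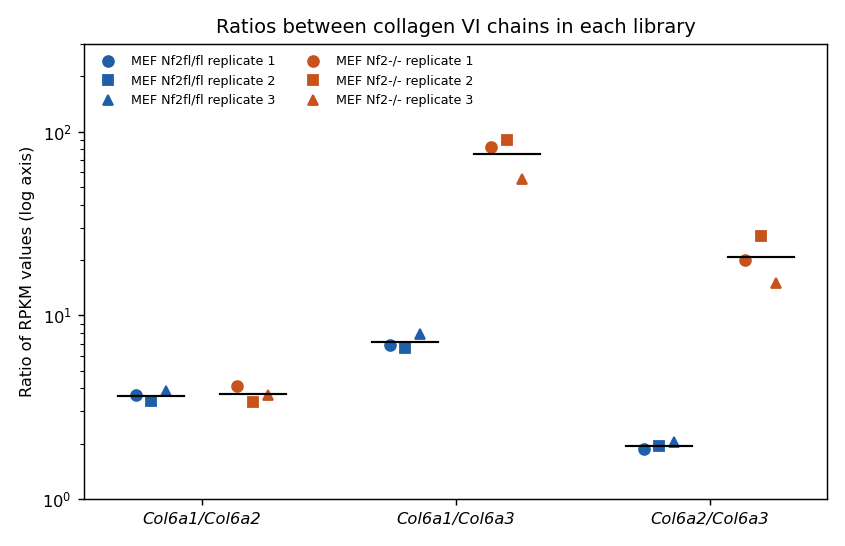
Ratio of RPKM values between pairs of chains (log axis) in each library, with MEF Nf2fl/fl in blue, MEF Nf2-/- in orange, the replicate number given by the marker and a line at the mean of 3. Col6a1 over Col6a2 has means of 3.66 and 3.71, while the ratios over Col6a3 are above 15 in every library labelled MEF Nf2-/- and below 8 in every MEF Nf2fl/fl library.

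Col6a3 made up 10.3%, 10.4% and 9.13% of the summed RPKM of these 3 chains in MEF Nf2fl/fl, and 0.969%, 0.846% and 1.403% in the libraries labelled MEF Nf2-/-. The share thus differed 9.27-fold between the means. RPKM depends on the length taken for a gene, and the exon length of 8326 bases behind Col6a2 includes a retained intron, while its longest coding transcript has 4653 bases. Scaled to the longest coding transcript in place of the exon length, the levels in MEF Nf2fl/fl were 138 ± 44.1 for Col6a1, 62.6 ± 16.7 for Col6a2 and 21.2 ± 5.11 for Col6a3 (SD, n = 3 each). On that scale Col6a1 over Col6a2 was 2.18 ± 0.126 in MEF Nf2fl/fl and 2.22 ± 0.224 under the MEF Nf2-/- label. The order Col6a1, Col6a2, Col6a3 held in every library on both scales, and the shifts of the log2 ratios between chains do not depend on the length. The share of Col6a3 does, and differed 9.28-fold on the scale of the longest coding transcript.

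The replicate number, which was not used to choose the chains, could be tested. Replicate 2 was the lowest of its line for Col6a1, Col6a2 and Col6a3, in both lines. The log2(RPKM + 1) of replicate 2 differed from that of the other replicates by -0.73 for Col6a1, -0.54 for Col6a2 and -0.54 for Col6a3. A limma F test of the replicate number with the line as a block called 21.2% of all genes, and of the chains it called 1, Col6a3 (adjusted p = 0.0158). Col6a1 (adjusted p = 0.0569) and Col6a2 (adjusted p = 0.0576) did not pass. The sample descriptions give same-numbered libraries of both lines a common mark, a letter for replicates 1 and 2 and a year for replicate 3, and do not say what it stands for.

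Within replicate numbers, the difference of log2(RPKM + 1) for Col6a1 was -0.55, -0.86 and -1.31, and for Col6a2 it was -0.68, -0.80 and -1.21. Both were therefore nearest to equal between the lines in replicate 1 and farthest apart in replicate 3. For Col6a3 it was -3.26, -3.20 and -3.34. Without the added 1 the log2 ratios for Col6a3 were -4.14, -4.63 and -4.13, so that replicate 2, where Col6a3 was lowest in both lines, then had the largest difference.

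Profiles over the 6 libraries were compared by the root mean square difference of log2(RPKM + 1), each gene centred on its own mean. These profiles hold the difference between the lines, by which the chains were chosen, so nearness is a description only. Col6a2 was 3 in the order of nearness to Col6a1 among 11066 genes, with a difference of 0.104, and Col6a1 held the same place for Col6a2. Between Col6a3 and Col6a1 the difference was 1.19, which put Col6a3 at 10978 in the order for Col6a1 but Col6a1 at 104, just after Col6a2 at 103, in the order for Col6a3. Among the 7023 genes compared whose mean was 5 RPKM or more, the nearest to Col6a1 were Cd248 (0.0806), which encodes the stromal surface protein endosialin, then Col6a2, Pcdh19 (0.1504), a protocadherin, Cxxc5 (0.162) and Sirpa (0.169).

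The nearest to Col6a3 were H19 (0.376), an imprinted noncoding RNA, Spp1 (0.451), which encodes the matrix protein osteopontin, Pdgfra (0.503), a growth factor receptor of fibroblasts, Mt2 (0.690), a metallothionein, and Chst1 (0.704), a sulfotransferase. Their distances were all larger than those near Col6a1. H19 was at 104.7, 44.3 and 123 RPKM in MEF Nf2fl/fl and at 7.30, 3.01 and 8.42 RPKM under the MEF Nf2-/- label. Pdgfra was at 12.3, 5.22 and 11.7 RPKM and at 1.42, 0.657 and 0.962 RPKM. The replicate 2 libraries were lowest in both lines for H19, Pdgfra and Chst1, as for Col6a3, while Spp1 (10.9, 7.83 and 6.82 RPKM) and Mt2 (9.50, 7.49 and 4.44 RPKM) were lowest in replicate 3 under the MEF Nf2-/- label.

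**Figure D3:**
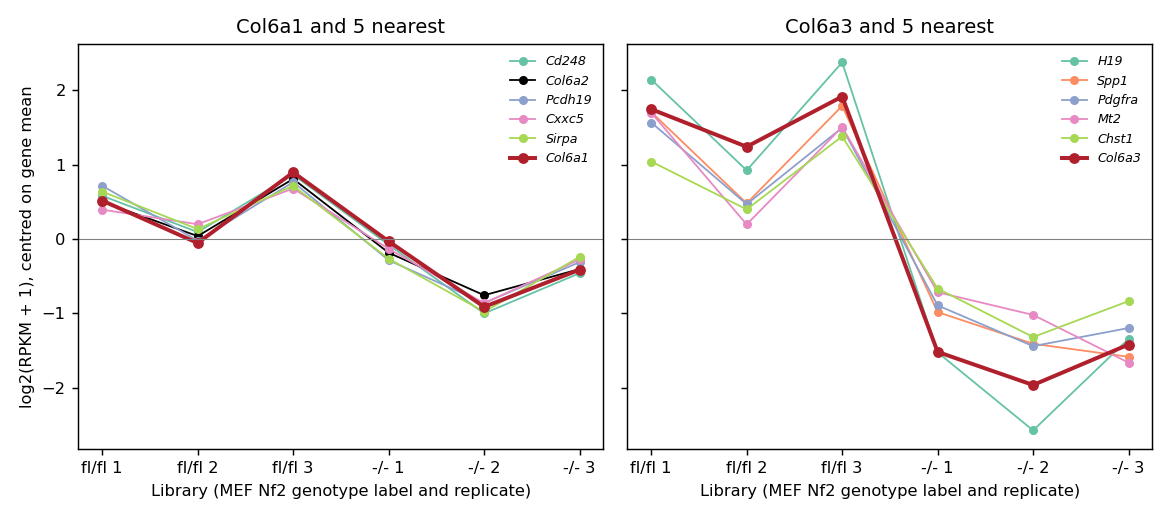
log2(RPKM + 1) of each gene in the 6 libraries, centred on the gene's mean, for Col6a1 with its 5 nearest genes and for Col6a3 with its 5 nearest genes. The lines only join the points of a gene, and Col6a1 and Col6a2 run together with a root mean square difference of 0.104, while the genes nearest to Col6a3 lie 0.376 to 0.704 from it.

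The receptors through which cells hold collagen VI were compared next, with limma on all genes tested. Of 9 receptor genes listed 6 were tested, and 1 fell and 0 rose (0.578% of all genes were called lower and 0.479% higher), with a median difference of -0.24 against -0.0078 over all genes tested. Cspg4, which encodes the surface proteoglycan NG2, a collagen VI receptor, was at 11.8, 15.8 and 12.4 RPKM in MEF Nf2fl/fl and at 5.67, 6.68 and 4.98 RPKM under the MEF Nf2-/- label, which did not overlap. It fell by 1.08 on the log2(RPKM + 1) scale (standard error 0.145, adjusted p = 0.0329 from limma).

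Under the replicate block, with which 4.54% of all genes were called lower and 2.99% higher, 2 more receptors passed. Antxr2, which encodes the collagen VI receptor CMG2, had means of 6.18 ± 0.318 and 4.23 ± 0.438 RPKM (difference -0.46, limma adjusted p = 0.120 without and 0.0381 with the block). Itga11, the collagen-binding integrin α11, went the other way, at 4.401, 3.71 and 11.5 RPKM in MEF Nf2fl/fl and at 19.5, 12.8 and 17.7 RPKM under the MEF Nf2-/- label (difference 1.35, limma adjusted p = 0.227 without and 0.0381 with the block). Antxr1, which encodes a receptor for the C-terminal end of α3, had means of 12.7 ± 2.48 and 12.5 ± 1.78 RPKM. Itgb1, the shared β1 integrin subunit and the most abundant gene of this list, had means of 335 ± 103 and 345 ± 78.0 RPKM, and neither passed with or without the block.

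Of 15 genes for matrix proteins that bind collagen VI 9 were tested, and all 9 had a difference below 0, with a median of -0.41 against -0.0078 over all genes tested. Of these, 2 were called lower with or without the block, Dcn and Fn1, where 0.578% of all genes were without and 4.54% with it. Among those at low levels and not tested, Matn1, Matn3 (means of 0.439 and 1.07 RPKM) and Col14a1 (0.0475 and 0.247 RPKM) were higher by the means under the MEF Nf2-/- label. Mfap2, Vwf and Vwa1 were lower. Dcn, which encodes decorin, a small proteoglycan that binds collagen VI, was at 2.57, 1.60 and 4.01 RPKM in MEF Nf2fl/fl and at 0.133, 0.0266 and 0.113 RPKM under the MEF Nf2-/- label, a ratio of means of 30.1. Its difference was -1.72 on the log2(RPKM + 1) scale (standard error 0.236, adjusted p = 0.0348 from limma), but Dcn passed the filter through MEF Nf2fl/fl alone, so it had to differ, and its call and its part in the count and the median are a description. Fn1, which encodes fibronectin, fell from 475 ± 17.9 to 305 ± 9.43 RPKM (SD, n = 3 each, log2 difference -0.63, adjusted p = 0.0390 from limma). Biglycan (Bgn), with means of 260 ± 46.4 and 194 ± 14.9 RPKM, and Col1a1, the most abundant of the list at 581 ± 139 and 436 ± 153 RPKM, did not pass.

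The machinery that all collagens use was measured almost in full, with 28 of 29 genes for synthesis and secretion tested. In limma without the block 0 passed, where 0.578% of all genes were called lower and 0.479% higher. Nothing is read from 0 of 28 at that background. At an unadjusted p under 0.05 in limma there were 0 of the 28, where 1097 of all 11067 genes were. With voom on recovered reads 0 passed, and the differences had a median of 0.029. With the block 1 of the 28 passed, where 4.54% of all genes were called lower and 2.99% higher, and this count was not above that background. It was the lysyl hydroxylase gene Plod1, with means of 11.3 ± 1.55 and 8.73 ± 1.52 RPKM (difference -0.34, limma adjusted p = 0.540 without and 0.0375 with the block). Hsp90b1, an endoplasmic reticulum chaperone gene and the most abundant here, had means of 382 ± 21.2 and 429 ± 68.8 RPKM.

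Of 8 protease genes linked to collagen VI 6 were tested, with a median difference of -0.087, and 0 passed in limma without the block (0 at an unadjusted p under 0.05, and 0 with voom). There 0.578% of all genes were called lower and 0.479% higher (1097 of 11067 at an unadjusted p under 0.05 in limma). Nothing is read from 0 of 6 at that background. With the block, when 4.54% of all genes were called lower and 2.99% higher, 1 of the 6 passed. Bmp1, which encodes a protease that cuts the C-terminal end of α3, had an adjusted p of 0.0414 from limma (means of 10.0 ± 1.26 and 7.95 ± 1.02 RPKM, difference -0.30). Mmp2, the most abundant of the list, had means of 104 ± 33.7 and 95.2 ± 27.5 RPKM.

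Like the collagen VI chains, matrilins and several other collagens carry von Willebrand factor A domains. Of 15 such genes listed 14 were in the table and 4 were tested, with a median difference of -0.38 against -0.0078 over all genes tested, and 1 fell with or without the block, where 0.578% and 4.54% of all genes did. Matn2, which encodes matrilin-2, was at 5.17, 4.29 and 6.77 RPKM in MEF Nf2fl/fl and at 2.34, 1.71 and 2.10 RPKM under the MEF Nf2-/- label (log2 difference -1.06, adjusted p = 0.0463 from limma). Col12a1, the most abundant, was higher in each library labelled MEF Nf2-/-, with means of 22.5 ± 6.19 and 43.6 ± 5.74 RPKM, and did not pass (difference 0.95, limma adjusted p = 0.142 without and 0.0597 with the block).

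The number of calls over all genes fell from 117 when certain single libraries were left out. Without MEF Nf2fl/fl replicate 1 or 3, or without the library labelled MEF Nf2-/- replicate 1 or 3, 10 to 18 of the 11067 genes passed in limma and Cspg4, Dcn, Fn1 and Matn2 did not. Without the library labelled MEF Nf2-/- replicate 2, 92 genes passed with 1 of the lists among them, and without MEF Nf2fl/fl replicate 2, 142 genes passed with 3 of the lists among them.

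**Figure D4:**
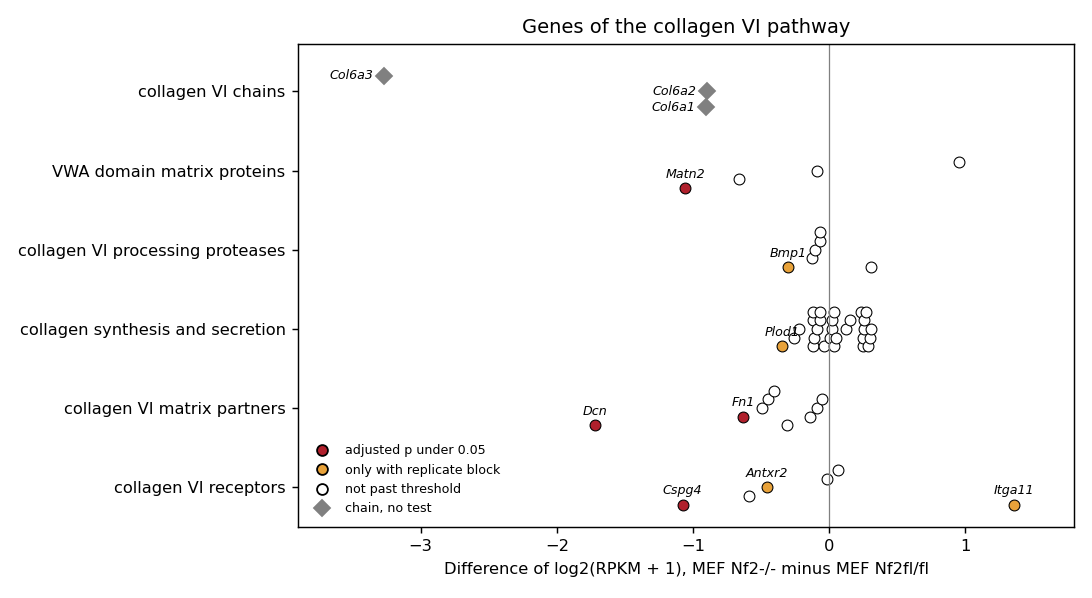
Difference of log2(RPKM + 1), MEF Nf2-/- minus MEF Nf2fl/fl, for the tested genes of the 5 collagen VI pathway lists (circles, filled red where limma's adjusted p passed and orange where it passed only with the replicate block) and the 3 tested chains (grey diamonds, no test), with the height within a list carrying no value. On this scale Col6a3 lies at -3.27 and Dcn, the lowest listed gene, at -1.72, although by the ratio of mean RPKM Dcn (30.1) differs more than Col6a3 (18.9).

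Genes beside the chains were then examined for a difference that extends along the chromosome, taking the 3 protein-coding genes on either side of each locus. Of the 11 that were tested 0 passed in limma without the block, and 1 had an unadjusted p under 0.05, while 0.578% of all genes were called lower and 0.479% higher. Nothing is read from 0 of 11 at that background. Prlh was not analysed here. Beside Col6a3, Cops8, 152.6 kb away, was at 13.1, 16.1 and 13.2 RPKM in MEF Nf2fl/fl and at 12.2, 15.8 and 13.0 RPKM under the MEF Nf2-/- label (difference -0.045). Ackr3 had a difference of -0.20. Mlph, the nearest protein-coding gene to Col6a3 in the table at 71.1 kb, was under 1 RPKM, at 0.250, 0.157 and 0.335 RPKM and at 0.0722, 0.0290 and 0.0434 RPKM, and was not tested. Its mean was 5.13-fold lower under the MEF Nf2-/- label and the lines did not overlap. Iqca and Rab17 were also under 1 RPKM.

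Beside Col6a1 and Col6a2, Pcbp3 (difference -0.11), Lss (-0.10) and Slc19a1 (-0.041) did not pass, and Spatc1l and Ftcd were near 0. Col18a1, 326 kb away, which encodes the basement membrane collagen that yields endostatin, was at 36.0, 21.9 and 59.4 RPKM in MEF Nf2fl/fl and at 13.4, 9.21 and 8.32 RPKM under the MEF Nf2-/- label. Its difference was -1.74 (standard error 0.354), with a limma adjusted p of 0.102 without the block and 0.0318 with it, when 4.54% of all genes were called lower and 2.99% higher. Around Col6a4, Col6a5 and Col6a6, the tested neighbours Aste1, Atp2c1, Pik3r4, Wdr82 and Ppm1m had differences of -0.064 to 0.13, and Glyctk was under 1 RPKM.

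**Figure D5:**
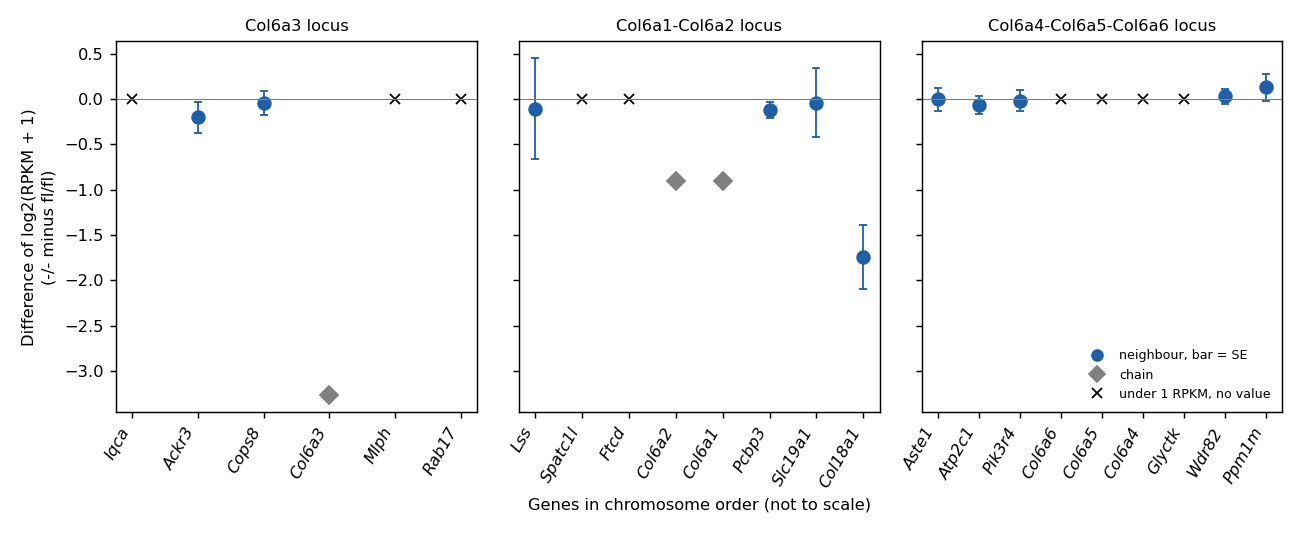
Difference of log2(RPKM + 1), MEF Nf2-/- minus MEF Nf2fl/fl, for the genes around the 3 collagen VI loci in chromosome order, with neighbours as blue circles (bars, standard error from limma), chains as grey diamonds and genes under 1 RPKM as crosses set at 0 that stand for no value. Cops8 and Ackr3 lie near 0 beside Col6a3 at -3.27, Col18a1 lies at -1.74, and Mlph, drawn as a cross, was 5.13-fold lower by the means at levels under 1 RPKM.

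Of 11 fibroblast markers 9 were tested, and 8 of these had a difference below 0, with a median of -0.95 against -0.0078 over all genes tested. Of the 9, 3 were called lower without the block, where 0.578% of all genes were. Dcn and Pdgfra (difference -2.35) met the filter through MEF Nf2fl/fl, with 0 and 1 libraries at 1 RPKM or more under the MEF Nf2-/- label, so their calls are a description. S100a4 fell from 684 ± 62.9 to 297 ± 59.0 RPKM (SD, n = 3 each, difference -1.21, adjusted p = 0.0329 from limma). With the block Col3a1 and Thy1 were also called lower, where 4.54% of all genes were. Col1a1, Col1a2, Vim and Pdgfrb did not pass in either fit, and the part of a change in the make-up of the cultures in the Col6a3 difference was not tested.

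Markers of other cell types were then summed. Of all genes tested 0.578% were called lower and 0.479% higher, so nothing is read from 0 calls among the few markers tested. The 7 macrophage markers summed to 9.25 to 12.0 RPKM in MEF Nf2fl/fl and 7.42 to 9.42 RPKM under the MEF Nf2-/- label, with 2 tested, 0 called (0 at an unadjusted p under 0.05 in limma) and Ptprc and Adgre1 at or near 0. Most of that sum was Cd68, with means of 7.43 and 5.99 RPKM, and Cd14, with means of 2.58 and 1.73 RPKM. The sums were 0.828 to 6.61 and 0.774 to 3.07 RPKM for skeletal muscle (5 of 7 markers in the table, 0 tested), 0.281 to 0.698 and 0.223 to 0.892 RPKM for 5 epithelium markers (0 tested), and 1.46 to 3.89 and 1.499 to 4.45 RPKM for 5 endothelium markers (1 tested, 0 called and 0 at an unadjusted p under 0.05 in limma). The upper ends for muscle and endothelium came from replicate 2, through Acta1 (6.25 and 2.57 RPKM) and Kdr (3.75 and 4.39 RPKM). For chondrocytes, of which 6 of 7 markers were in the table, the sums were 8.25 to 15.0 and 8.42 to 22.0 RPKM, with 2 tested, 0 called (0 at an unadjusted p under 0.05 in limma) and Acan at or near 0. Most of that sum was Sox9, with means of 7.79 and 13.3 RPKM, and Col2a1, with means of 2.56 and 1.28 RPKM.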

How the data were processed

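The authors deposited 1 table of normalized values, which behave as RPKM (reads divided by exon length and by depth). Multiplied by GENCODE vM21 exon length, values of at most 20 reads came, in 83.0% to 84.9% of cases, within 0.05 of a whole number, against 10% for an even spread, which gave the depths. The unit is thus an inference. GENEWIZ made and sequenced the libraries, the submitters' processing notes give mm10 as the genome build, and the aligner and counting tool are not given in the sources used here.

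Values were set to log2(RPKM + 1), and the 11067 genes that reached 1 RPKM in 3 or more libraries entered limma 3.58.1 under R 4.3.3. The fit (lmFit, then eBayes, trend and robust both on) was unpaired as in the study's methods, its p-values two-sided and Benjamini-Hochberg adjusted, and 0.05 was the threshold. After subtracting each line's mean, libraries sharing a number correlated at 0.552, 0.819 and 0.516 across genes, and the sample descriptions give such libraries a common mark of unstated meaning, so the numbers were taken as pairs and a fit with the replicate block is given where it changes a call. The method was also run on simulated data for the comparison of the lines. These were drawn with independent noise and no effect shared by libraries of the same number, so nothing is read from that run here.

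Groups came from the sample labels. The members, gene lists and markers were chosen with earlier results of these data known. Genes are named by a rule: Nf2, the 6 chains, list genes past the threshold with or without the block, the most abundant gene of each pathway list, the 3 neighbours on either side of each locus, and the 5 genes nearest in profile to Col6a1 and to Col6a3. Other genes were named after their values were seen. The alternatives were the replicate block, adding 0.1 instead of 1, a filter of 5 RPKM or none, quantile normalization, median centring, limma without trend and robust settings, and each library or replicate number left out. Limma's voom on recovered reads and the length of the longest coding transcript were chosen after seeing the data. Shared stretches and neighbours came from GENCODE vM21, promoters from RefSeq (all 6 chains matched by symbol). Figures were drawn with matplotlib 3.10.9.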

Additional observations from a re-analysis of the deposited data

How the results depend on the processing

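Col6a1, Col6a2 and Col6a3 stayed lower under the MEF Nf2-/- label in every alternative run. The difference for Col6a3 was -4.14 with a pseudocount of 0.1 and -4.15 with voom, against -3.27. Likewise the shifts of the log2 ratios of Col6a1 and Col6a2 over Col6a3, 3.38 and 3.36, were 2.36 and 2.37 with 1 added to each value. The number of genes called between the lines, 117, was 833 with the replicate block, 9 with no filter and 63 with a filter of 5 RPKM, and 0 to 484 with libraries or replicate numbers left out. It was 0 without replicate 1 of both lines (578 at an unadjusted p under 0.05 in limma) and 0 without replicate 3 (556). The number of pathway list genes called, 4, was 8 with the replicate block, 0 with no filter, 2 with a filter of 5 RPKM and 0 to 4 with libraries left out. Of the neighbours, 0 were called without and 1 with the replicate block, which changed no call among pathway list genes and neighbours other than those of Antxr2, Itga11, Plod1, Bmp1 and Col18a1. The cause of these changes was not tested. Depth limits Col6a4, Col6a5 and Col6a6, with 0 to 25 reads per library.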
